A study of Equus caballus with 4 samples.

Results

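The genes described here serve adhesion, fusion and membrane shaping in myoblasts. They are the cadherins *CDH15* and *CDH2*, the receptors *NEO1*, *CDON* and *BOC*, the membrane proteins *CAV3*, *DYSF*, *MYOF* and *BIN1*, and the adhesion molecule *ALCAM*. A probe was taken for a gene when it was not a control and its gene name in the array files was the symbol, upper or lower case. By this rule 8 of the 10 genes had probes, 15 probes in all, out of 14592 named genes and 43603 probes. *CDH15* and *MYOF* had none. For each of them 1 probe was found by its description after the files had been seen, and its values are given beside the others but not counted with them.

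The cells were equine satellite cells from semitendinosus muscle on the 3rd day of differentiation. GO-treated cells had received 0.125 µM gamma-oryzanol (GO), a mixture of ferulic acid esters from rice bran oil, for 24 h, and control cells had received only its vehicle, DMSO, at 0.04 µl/ml, which the GO-treated cells received as well. On each of 4 two-color arrays RNA of GO-treated cells (Cy5) was hybridized with RNA of control cells (Cy3), and the labels call the arrays biological replicates. The methods describe isolations from several horses, the choice of the cell line with the best viability and fusion, and cells of each isolation plated in wells of their own. RNA samples with the highest integrity were taken for the arrays, and whether each replicate was another horse is not stated outright.

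Myoblasts first stick to each other through cadherins and immunoglobulin-type receptors, then join their membranes to become myotubes. CDON, BOC and neogenin sit beside cadherins at these contacts and pass a signal that promotes myogenic differentiation. Ferlins and caveolin-3 serve the traffic and repair of the muscle membrane, and BIN1 bends it into T-tubules.

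The processed signal is the intensity of a spot after background subtraction and dye normalization, and its ratio, GO-treated vs. control cells, is given per array on the log2 scale. Of the spots that were not controls, the share well above background per array was 63.5 to 68.9% for control cells and 57.4 to 67% for GO-treated cells. Probes entered the test if the same channel, or both, stood well above background on all 4 arrays. A probe was counted as past both thresholds at an adjusted p of at most 0.05 with a fold change of at least 1.3. The p-values measure only the spread between the 4 arrays, and that number limits the precision of each ratio. GO-treated cells carried the same dye throughout, so a dye effect on a probe and an effect of GO cannot be told apart.

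*NEO1* fell and *ALCAM* rose in GO-treated cells, and the other 6 genes found by symbol did not pass both thresholds. Of the 15 probes 14 were tested and 4 were past both thresholds, the 3 probes of *NEO1* and the probe of *ALCAM*. Among all 26832 tested probes the share was 8.94%, with 3.33% higher and 5.61% lower. By the brightest probe of each gene, 2 of 8 genes were past both thresholds, 1 higher and 1 lower, beside 8.67% of the 9501 named genes tested, of which 3.3% were higher and 5.37% lower. The median log2 ratio of the 8 genes was 0.03 and that of all named genes 0.00. RNA was taken from whole cultures, so fewer cells of a type and less RNA per cell cannot be told apart.

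**Figure D1:**
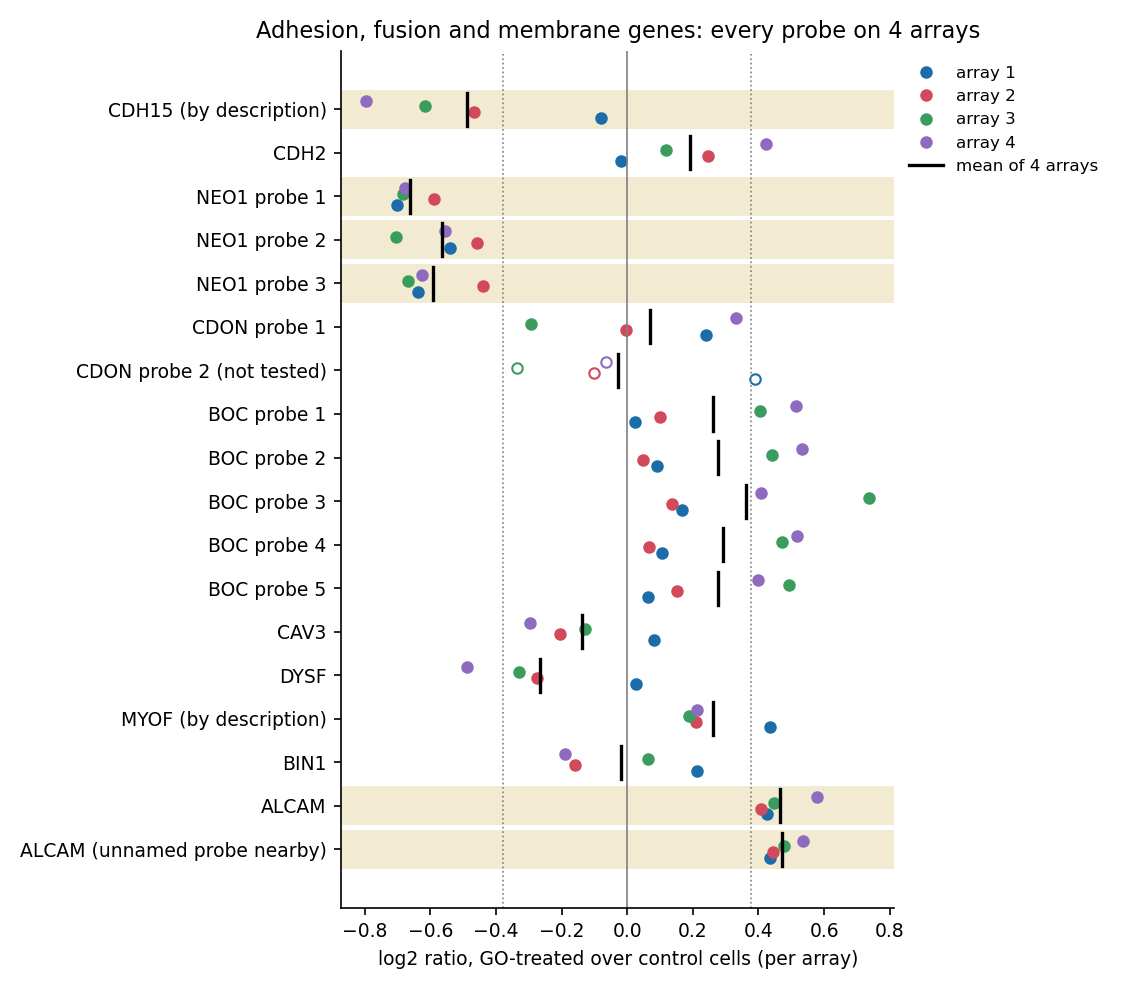
Log2 ratio, GO-treated vs. control, on each of the 4 arrays (points, horizontal axis) for every probe, with the mean as a black bar, dotted lines at a fold change of 1.3 and shading for probes past both thresholds. The 3 *NEO1* probes lie between -0.71 and -0.44 and the *ALCAM* probe between 0.41 and 0.58, while the points of *CDON* and *BIN1* lie on both sides of 0; open points mark the probe that was not tested.

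Neogenin, the product of *NEO1*, is a receptor for netrins and repulsive guidance molecules that promotes myoblast differentiation. Its brightest probe gave log2 ratios of -0.54, -0.46, -0.71 and -0.56 on arrays 1 to 4. The mean was -0.56 ± 0.10 (SD, n = 4) or 1.48-fold, lower in GO-treated cells on 4 of 4 arrays, and limma gave an adjusted p of 0.00479. Each array stood on the same side of 0 with a narrow spread between arrays. The signal was 628, 571, 517 and 514 in GO-treated cells and 912, 784, 843 and 755 in control cells. The channels did not overlap, since the highest signal of GO-treated cells lay below the lowest of control cells. With a plain one-sample test the adjusted p was 0.0636 and the call was lost, in a range of 0.00289 to 0.0636 over the alternatives.

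The second *NEO1* probe gave -0.70, -0.59, -0.68 and -0.68, a mean of -0.66 ± 0.05 (SD, n = 4) with an adjusted p of 0.00233. The third gave -0.64, -0.44, -0.67 and -0.63, a mean of -0.59 ± 0.10 (SD, n = 4) with an adjusted p of 0.00426. The call of the third was lost with the plain one-sample test (adjusted p 0.0606) and without the replicate block (0.0573). That of the second held in 11 of 11 alternatives. All 3 probes had signals that did not overlap between the channels. They are not independent readings of the gene, because they lie close together, with starts 20, 53 and 73 bases apart on the minus strand of chromosome 1, and the closest pair shares 40 bases. The brightest lies at chr1:117450629-117450688 in the EquCab1 positions of the files. The first 30 of its 60 bases are shown because this is the probe with the gene's strongest signal.
NEO1: agtcattgacagtgtgggttgttccaaggg

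ALCAM is an immunoglobulin-type adhesion molecule that binds itself and CD6 on neighboring cells. Its probe gave log2 ratios of 0.43, 0.41, 0.45 and 0.58. The mean was 0.46 ± 0.08 (SD, n = 4) or 1.38-fold, higher on 4 of 4 arrays, at an adjusted p of 0.00605. The call was lost with a plain one-sample test (adjusted p 0.0591) and without the replicate block (0.16), in a range of 0.00311 to 0.16 over the alternatives. The signal was 1610, 1449, 1967 and 1713 in GO-treated cells and 1198, 1093, 1443 and 1146 in control cells. Array 3 was the brightest in both channels, and the lowest GO-treated value lay just above the highest control value, so the channels did not overlap. The probe lies at chr19:46963732-46963791, minus strand, and its first 30 bases are shown for the only gene of the rule that rose.
ALCAM: gattgttatcagtaatgccctcaaactttc

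A probe without a gene name, designed on a transcript contig, lay 1313 bases from the *ALCAM* probe on the same strand, and was chosen after its values were seen. Its log2 ratios were 0.43, 0.44, 0.48 and 0.54, a mean of 0.47 ± 0.05 (SD, n = 4) with an adjusted p of 0.00514. Its signals did not overlap between the channels either, and its call was lost without the replicate block (adjusted p 0.147, in a range of 0.00215 to 0.147). The files do not assign it to *ALCAM*. Unnamed probes were searched for on the same strand within 5000 bases of the probes of the rule that had a chromosome. The only others found lay 2850 to 2869 bases from a *BOC* probe. They were well above background on 0 arrays in both channels and were not tested.

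**Figure D2:**
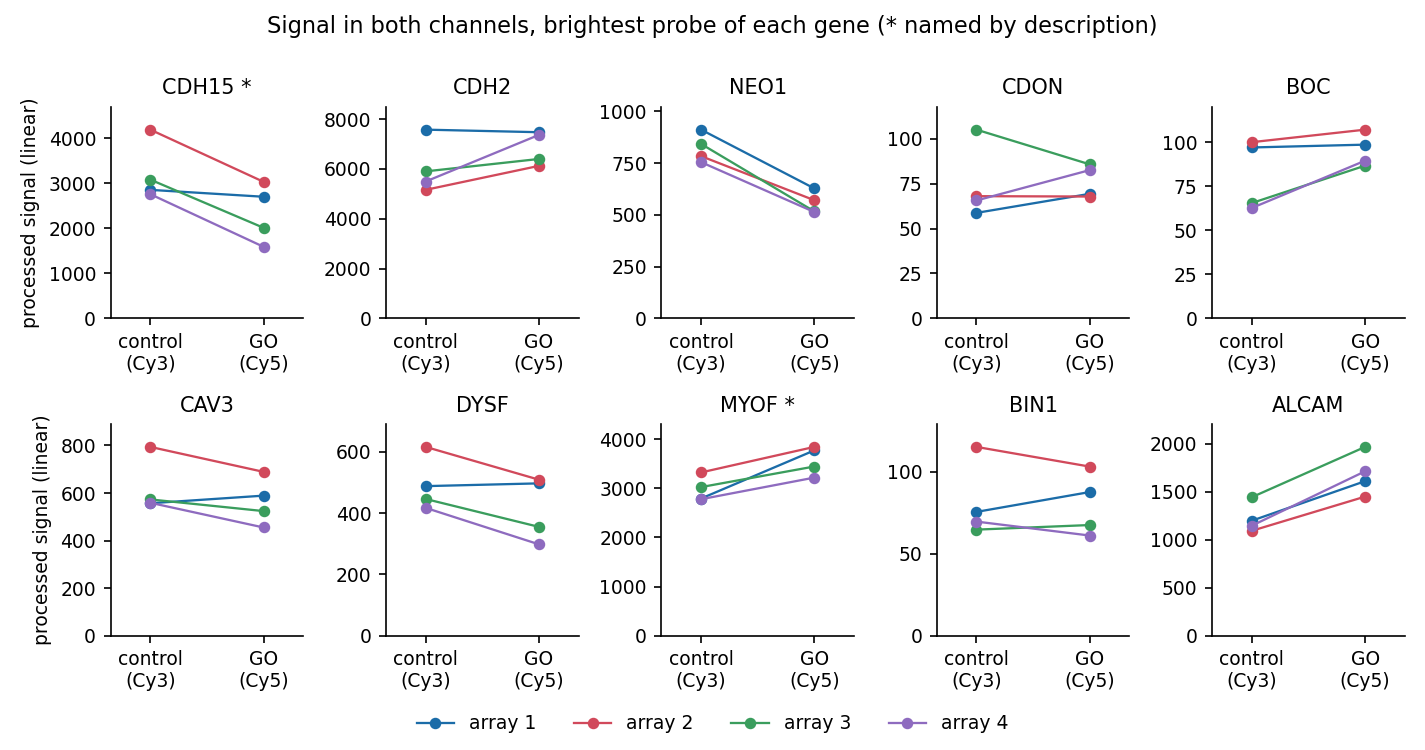
Processed signal (linear scale from 0, arbitrary units) of the brightest probe of each gene in control and GO-treated cells, with a line for each of the 4 arrays and an asterisk for the genes found by description. Lines of *NEO1* slope down and lines of *ALCAM* slope up on all 4 arrays; for *CDH15* and *DYSF* the line of array 1 is nearly flat and the other 3 slope down.

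CDON and BOC are related cell surface receptors that bind each other, and neogenin binds CDON. The tested *CDON* probe gave 0.24, -0.00, -0.29 and 0.33, a mean of 0.07 ± 0.28 (SD, n = 4) with an adjusted p of 0.687. The arrays disagreed in sign, and without array 4 the mean was -0.02. The other *CDON* probe was well above background on 1 array in each channel, and no fold change is given for it.

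All 5 *BOC* probes were tested, and none passed the adjusted p. The brightest gave 0.02, 0.10, 0.40 and 0.51, a mean of 0.26 ± 0.24 (SD, n = 4) with an adjusted p of 0.106. Means of the 5 probes ran from 0.26 to 0.36 and their adjusted p from 0.063 to 0.106, and each was higher in GO-treated cells on 4 of 4 arrays. With normexp and loess the means were 0.12 to 0.17. Arrays 1 and 2 lay near 0 (0.02 to 0.17) and arrays 3 and 4 above (0.40 to 0.74). The probes are moved by 1 base from each other and share 56 bases, so they amount to 1 reading of the gene. *BOC* was dim. Its brightest probe had signals of 86.6 to 107 in GO-treated and 62.6 to 99.9 in control cells. These were 3.33 to 5.35 times the local background. The first 30 bases of the brightest probe, at chr19:40661745-40661804, minus strand, are shown because all 5 probes contain them.
BOC: ttataattctggagagagacgtagggatcc

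Within arrays, *NEO1* lay below *CDON* by differences in log2 ratio of -0.78, -0.46, -0.41 and -0.89, a mean of -0.63 ± 0.24 (SD, n = 4). This difference had the same sign on 4 of 4 arrays, and its exact sign-flip p of 0.125, two-sided, is the smallest that 4 arrays allow. Adjusted over the 4 pairs compared, it was 0.167. *CDON* minus *BOC* was -0.19 ± 0.38 (SD, n = 4), lower on 3 of 4 arrays, with an exact p of 0.5 before and after adjustment. It rested on array 3: without that array the mean was -0.02, and without array 1 it was -0.33.

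M-cadherin, encoded by *CDH15*, and N-cadherin, encoded by *CDH2*, hold myoblasts together before fusion. The *CDH15* probe found by description gave -0.08, -0.47, -0.61 and -0.80. Its mean was -0.49 ± 0.30 (SD, n = 4) or 1.40-fold, lower on 4 of 4 arrays, and the adjusted p of 0.034 put it past both thresholds. The signal was 2700, 3031, 2011 and 1589 in GO-treated cells and 2853, 4189, 3080 and 2757 in control cells. Array 1 was almost level and the other 3 were lower, and the channels overlapped. The call depended on single arrays: the adjusted p was 0.106 without array 2, 0.113 without array 3 and 0.0785 without array 4. It was also lost without the replicate block (0.402), with the plain one-sample test (0.175) and without the filter on dim probes (0.153). The adjusted p ranged from 0.0127 to 0.402 over all alternatives. The probe matches chr3:63378474-63379468, plus strand, over 995 bases, so its 60 bases join exons, and it is shown whole because the name rests on its description alone.
CDH15: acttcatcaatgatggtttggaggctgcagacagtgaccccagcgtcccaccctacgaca

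*CDH2* gave -0.02, 0.25, 0.12 and 0.42, a mean of 0.19 ± 0.19 (SD, n = 4) with an adjusted p of 0.151. Its signal was 6121 to 7471 in GO-treated cells and 5159 to 7574 in control cells. *CDH15* minus *CDH2* was -0.06, -0.71, -0.73 and -1.22 on arrays 1 to 4, a mean of -0.68 ± 0.48 (SD, n = 4). It was negative on 4 of 4 arrays, close to 0 on array 1, with an exact p of 0.125 and an adjusted p of 0.167.

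Dysferlin (*DYSF*) serves the resealing of torn muscle membrane, and myoferlin (*MYOF*) belongs to the same ferlin family and takes part in myoblast fusion. *DYSF* gave 0.03, -0.28, -0.33 and -0.49, a mean of -0.27 ± 0.21 (SD, n = 4) with an adjusted p of 0.0856. Its signal was 497, 509, 355 and 298 in GO-treated cells and 488, 616, 446 and 417 in control cells. As for *CDH15*, array 1 stood level and array 4 lowest. Without array 1 the mean was -0.36 with an adjusted p of 0.033, in a range of 0.033 to 0.691 over the alternatives, and the fold change remained under 1.3.

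*MYOF*, by its description, gave 0.43, 0.21, 0.19 and 0.21, a mean of 0.26 ± 0.12 (SD, n = 4). It was higher on 4 of 4 arrays with an adjusted p of 0.0405, and its fold change of 1.20 did not reach 1.3. The adjusted p was above 0.05 without any one of the arrays (0.067, 0.119, 0.101 and 0.0868 without arrays 1 to 4), in a range of 0.0119 to 0.396 over the alternatives. The signal was 3772, 3843, 3444 and 3218 in GO-treated cells and 2792, 3323, 3025 and 2778 in control cells, with a small overlap. *DYSF* minus *MYOF* was -0.41, -0.49, -0.52 and -0.70, a mean of -0.53 ± 0.12 (SD, n = 4). Array 1, where *DYSF* was level and *MYOF* highest, gave a difference of the same sign as the rest, and the exact p was 0.125, adjusted 0.167. Both probes are shown because this pair had the narrowest spread of the 4 compared. The *DYSF* probe lies at chr15:27771949-27772008, minus strand, and the *MYOF* probe at chr1:35060671-35062101, plus strand, where it spans 1431 bases.
DYSF: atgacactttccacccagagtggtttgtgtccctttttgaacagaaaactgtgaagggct
MYOF: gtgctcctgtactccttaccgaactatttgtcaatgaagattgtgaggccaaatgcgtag

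Caveolin-3 (*CAV3*) forms the caveolae of muscle cells and binds dysferlin. Its probe gave 0.08, -0.21, -0.13 and -0.30, a mean of -0.14 ± 0.16 (SD, n = 4) with an adjusted p of 0.241. The signal was 455 to 689 in GO-treated cells and 557 to 794 in control cells, and array 1 was again the only one above 0. The probe lies at chr16:8010851-8010910, minus strand, and is shown beside that of dysferlin.
CAV3: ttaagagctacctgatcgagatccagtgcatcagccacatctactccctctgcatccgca

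*BIN1*, whose product shapes T-tubules, gave 0.21, -0.16, 0.06 and -0.19, a mean of -0.02 ± 0.19 (SD, n = 4) with an adjusted p of 0.901. Its signal was dim, 61 to 103 in GO-treated cells and 64.6 to 115 in control cells, 2.62 to 4.75 times the local background. The sign of the mean turned without array 2 (0.03) and without array 4 (0.04).

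*CDH15*, *DYSF*, *CAV3* and *BIN1* shared a layout that was noticed in the values: each had its highest ratio on array 1 and its lowest on array 4. Array 1 had the lowest quality weight in limma, 0.527, beside 1.81, 1.03 and 1.01 on arrays 2 to 4. *NEO1* and *ALCAM* did not share it, with array 1 at -0.54 and 0.43. *CDH2* and the brightest probe of *BOC* ran the other way, with their lowest ratio on array 1 and their highest on array 4.

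**Figure D3:**
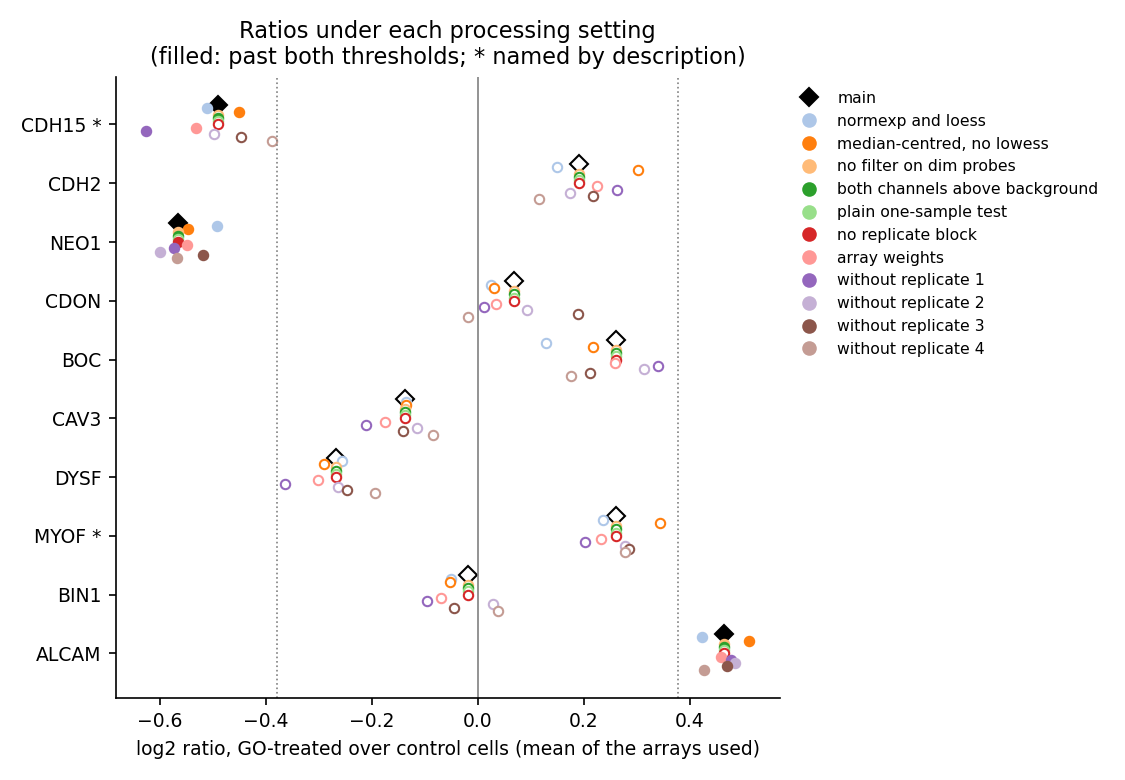
Mean log2 ratio of the brightest probe of each gene under each processing setting (points, horizontal axis), filled where past both thresholds, with diamonds for the values as reported and dotted lines at a fold change of 1.3. *NEO1* stays between -0.60 and -0.49 and *ALCAM* between 0.42 and 0.51; *CDON* and *BIN1* cross 0 when single arrays are left out.

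Markers of muscle cells were looked at beside these genes, each by its brightest probe. Of 11 tested markers of differentiating myotubes 7 fell and 0 rose, with a median log2 ratio of -0.40, beside 5.37% of all named genes that fell. The count was 6 with both channels above background and 3 without the replicate block. It was 3 without the filter on dim probes and 0 with the plain one-sample test. The share of all tested probes was 8.4% with both channels, 1.38% without the block, 2.08% without the filter and 0.548% with the plain test. With that test 9 markers had an unadjusted p under 0.05 (10 in limma), a threshold at which no share of all named genes is given. The 7 included the myosin heavy chains *MYH8* (-1.08 ± 0.43, SD, n = 4), *MYH3* (-0.83 ± 0.19) and *MYH2*. *MYH2* was dim, well above background on 4 arrays in control cells but on 3 in GO-treated cells, so it was tested through the group where it was high, and its ratio moved from -1.11 to -0.39 with normexp and loess. The list's median was -0.34, -0.53, -0.51 and -0.57 on arrays 1 to 4, and 8 of the 11 markers had their highest ratio on array 1, as *CDH15* and *DYSF* did. *MYH8* (-1.63) and *MYH2* (-1.52) had their lowest there. Its summed signal was 295099, 304736, 274790 and 215531 in GO-treated cells and 361771, 431240, 441450 and 329247 in control cells, and cardiac actin, *ACTC1*, was its brightest gene. With each array only centred on its median, without lowess, the median of the list was -0.19. In that setting 2 of its genes were past both thresholds as lower and 1 as higher, beside 12.6% of all tested probes. *MYH3* was at -0.15 there and no longer past both thresholds (adjusted p 0.2, in a range of 0.00169 to 0.2).

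Of 7 tested markers of satellite cells and myoblasts 3 fell, the myogenic factor *MYF5* (-0.93 ± 0.04, SD, n = 4), desmin, *DES* (-0.61 ± 0.24), and the acetylcholine receptor subunit *CHRNA1* (-0.46 ± 0.15). The median of this list was -0.36, and it was -0.33 with median centring, where *DES* (-0.33) and *CHRNA1* (-0.38) were no longer past both thresholds. The count was 1 without the filter, without the replicate block and with the plain one-sample test, beside 2.08%, 1.38% and 0.548% of all tested probes. Its summed signal was 24199, 25748, 24370 and 21816 in GO-treated cells and 29707, 38076, 39473 and 32040 in control cells, with *DES* the brightest. Across both lists, 17 of 18 markers had a mean below 0, and 13 were lower on all 4 arrays, beside 49.5% and 21% of all named genes tested. *PAX7*, the defining marker of satellite cells, had no named probe. The part of these markers in the values of *NEO1*, *CDH15* and *DYSF* was not tested.

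Of 8 tested fibroblast markers 1 rose, the growth factor receptor *PDGFRA* (0.87 ± 0.48, SD, n = 4). It was dim, with mean signals of 30.7 in control and 55 in GO-treated cells. With normexp and loess its ratio was 0.37, short of 1.3-fold. Each marker was counted by its brightest probe. Other probes were past both thresholds for *COL1A2* (2 of 9 tested), *POSTN* (2 of 4) and *DCN* (1 of 2). The lowest probes of *COL1A2* and *POSTN* were at -0.42 and -0.51, and the highest of *DCN* at 0.42. The list's count was 0 without array 2, without the filter on dim probes, without the replicate block or with the plain one-sample test. It was 2 with both channels above background and 2 with array weights. The share of all tested probes was 5.84% without array 2, 2.08% without the filter, 1.38% without the block and 0.548% with the plain test. It was 8.4% with both channels above background and 9.19% with array weights. At an unadjusted p under 0.05 the plain test had 2 genes and limma 3. The direction of this list depended on the scaling: 4 of 8 means lay below 0, with a median of -0.01, but with normexp and loess 1 lay below 0 and the median was 0.16. With median centring 1 lay below 0 and the median was 0.64, with 5 genes higher and 1 lower past both thresholds. In that setting 12.6% of all tested probes were past them. Its summed signal was 437123, 467561, 482072 and 351127 in GO-treated cells and 466816, 483544, 553647 and 353782 in control cells, with the collagen *COL1A2* the brightest. Of 4 smooth muscle and pericyte markers and 3 leukocyte markers 0 passed both thresholds in limma, with medians of 0.05 and 0.11. All 4 smooth muscle and pericyte means lay above 0. In limma 0 of these 4 markers and 2 of the 3 leukocyte markers had an unadjusted p under 0.05 (0 and 1 by the plain one-sample test). No share of all named genes is given at that threshold. All 5 adipocyte markers and all 7 endothelial markers that had a probe were too dim to be tested.

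Genes that work with these proteins were looked at in 8 lists, 106 tested genes counted once each by their brightest probe. Of them 12 were past both thresholds, 11 lower and 1 higher. This share was 11.3%, with 10.4% lower and 0.943% higher, beside 8.67% of all named genes, with 5.37% lower and 3.3% higher. The median log2 ratio was -0.01, beside 0.00 for all named genes. Of the 12, 3 were well above background on all 4 arrays in control cells alone, where they were high. With both channels required to be above background, 8 of 97 list genes were lower (8.25%) and 1 higher (1.03%), beside 4.63% and 3.37% of 8605 named genes. Without the replicate block 1 caveola gene, *CAVIN2*, was past both thresholds and 0 genes of the other 7 lists. *CAVIN2* was well above background on 0 arrays in GO-treated cells, so it could pass only as lower. With the plain one-sample test 1 repair gene was past both thresholds and 0 genes of the other 7 lists. Of all tested probes 1.38% were past both thresholds without the block and 0.548% with the plain test.

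Among 14 listed genes, immunoglobulin cell adhesion molecules like *ALCAM* and its binding partner *CD6*, 4 fell and 0 rose, with a median of -0.14. This count was 3 with both channels above background, 2 with normexp and loess and 2 without the filter on dim probes. Of all tested probes 8.4%, 4.83% and 2.08% were past both thresholds in these settings. With the plain one-sample test 7 of the 14 genes had an unadjusted p under 0.05 (8 in limma). No share of all named genes is given at that threshold, so 7 and 8 have no background beside them. The 4 that fell were *CADM1* (-0.56 ± 0.22, SD, n = 4), *NRCAM* (-0.51 ± 0.13), *CADM4* and, named because the count is small, *CXADR* (-0.44 ± 0.08). *CADM4* was well above background in GO-treated cells on 3 of 4 arrays, and its ratio of -0.61 became -0.32 with normexp and loess, short of 1.3-fold. The direction of *ALCAM* was not that of the 4 relatives that passed, of which *CADM4* was tested through control cells, where it was high. Among 14 genes of fusion and fusion adhesion 2 fell, *NCAM1* (-0.63 ± 0.22) and the integrin subunit *ITGA4* (-0.47 ± 0.20), and the median was -0.08. The count was 1 without array 2 and 0 without the filter on dim probes, beside 5.84% and 2.08% of all tested probes. With normexp and loess 2 genes of this list were past both thresholds as lower and 1 as higher. *MCAM*, a gene of both lists, was not counted by its brightest probe (0.02). Of its 4 tested probes 2 were past both thresholds, with the lowest at -0.70. The fusion proteins myomaker and myomixer had no named probe.

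Of 8 partners of the promyogenic receptors and of 15 catenins and signaling genes beneath them 0 passed both thresholds in limma by their brightest probes. The medians were -0.06 and -0.01. For the catenin gene *CTNNB1* 1 of 5 tested probes was past both thresholds, with the lowest at -0.43 and the brightest at -0.30. Of the partners 1 passed with normexp and loess, with median centring, with array weights and without array 3, and 1 gene of the catenin list without array 4. Of all tested probes 4.83%, 12.6%, 9.19%, 5.97% and 7.92% were past both thresholds in these settings, in that order. At an unadjusted p under 0.05 in limma there were 3 partners and 6 genes of the catenin list, and 4 and 5 by the plain one-sample test. Without a share of all named genes at that threshold these counts cannot be set against a background. Of 15 actin drivers of fusion, with a median of 0.03, 1 was past both thresholds, the filopodial myosin *MYO10* at -0.41 ± 0.19 (SD, n = 4). It was well above background in GO-treated cells on 3 of 4 arrays, its ratio was -0.14 with normexp and loess, and the call held in 3 of 10 alternatives. For *ELMO2*, of the same list, 1 of 6 tested probes was past both thresholds, with the highest at 1.26 and the brightest at 0.07.

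The list of ferlins and membrane repair had 20 tested genes, none of them a further ferlin. *OTOF* was too dim, and *FER1L4*, *FER1L5* and *FER1L6* had no named probe. Of these 20, 2 fell, both of the Popeye family of membrane proteins, *POPDC3* (-0.42 ± 0.05, SD, n = 4) and *BVES* (-0.40 ± 0.05), and the median was -0.01. *POPDC2*, of the same family, was not past both thresholds (-0.17 ± 0.16, adjusted p 0.155 in limma). Of 11 caveola genes 2 were counted as lower, the coat protein of muscle caveolae *CAVIN4* (-0.49 ± 0.06) and its relative *CAVIN2*. *CAVIN2* was well above background on 4 arrays in control cells and on 0 in GO-treated cells, so it could pass only as lower and no fold change is given for it. With both channels above background the count was 1, beside 8.4% of all tested probes. The other caveola genes were not past both thresholds, and the median of the list was 0.13. Of 11 partners of *BIN1* 1 rose, the dynamin *DNM1* (0.40 ± 0.16), with a median of 0.04. The call of *DNM1* held in 4 of 11 alternatives. Among others it was lost without array 2, without array 4 and without the filter on dim probes. For *CLTC*, of the same list, 1 of 3 tested probes was past both thresholds, with the lowest at -0.39 and the brightest at -0.21. With normexp and loess *CXADR* (-0.22), *BVES* (-0.27), *DNM1* (0.12) and *PDGFRA* (0.37) also fell short of a 1.3-fold change, as *DNM1* did with median centring (0.31). With median centring and no lowess, 2 genes each of the fusion, repair and caveola lists were past both thresholds as higher, beside 2 each as lower. In that setting 12.6% of all tested probes were past both thresholds, against 8.94% with the values as reported.

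**Figure D4:**
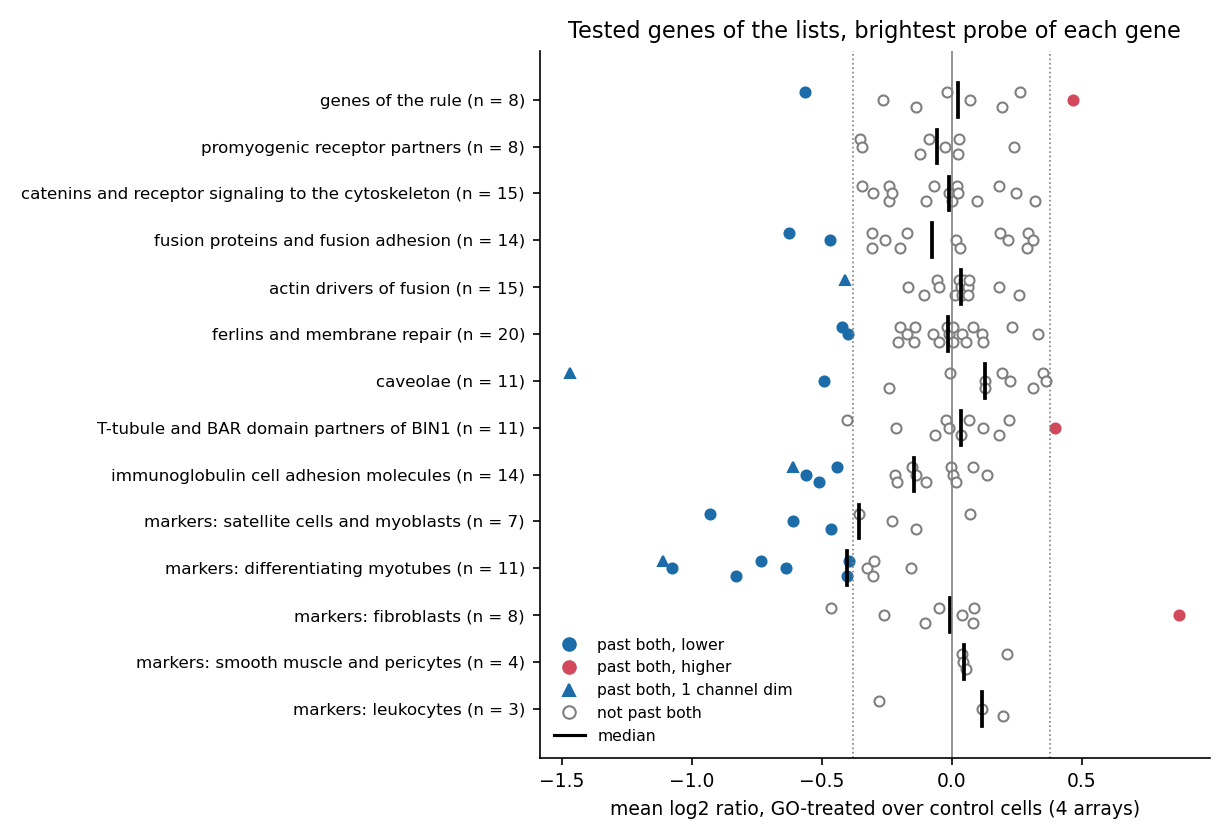
Mean log2 ratio over 4 arrays (horizontal axis) of each tested gene by its brightest probe, in rows for the genes of the rule, the gene lists and the cell type markers; black bars are medians, blue and red points are past both thresholds as lower and higher, triangles are genes of that kind with 1 channel not well above background on every array, dotted lines mark a fold change of 1.3. Medians of the myotube and satellite cell markers lie at -0.40 and -0.36, and those of the other rows between -0.14 and 0.13; with median centring the fibroblast median is 0.64.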

How the data were processed

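RNA of GO-treated (Cy5) and control (Cy3) cells was measured on 4 arrays of 1 slide, so no test of the slide as a batch was possible. The log10 ratios deposited by the authors are those of the processed signals of Feature Extraction, corrected for background, spatial trends and, by a linear and lowess fit, for dye. Per the file headers, the intensity values are spot signals on a linear scale. Ratios were multiplied by log2 of 10. Control spots and outlier spots were left out, and spots of a probe were averaged. The probes tested, 26832 of 43603, had 1 channel or both well above background on each of the 4 arrays, the same channel throughout.

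Log2 ratios were tested against 0, two-sided, with limma 3.58.1 in R 4.3.3 (lmFit on an intercept and eBayes, prior SD 0.144, 3.6 prior and 3 residual degrees of freedom), with Benjamini-Hochberg adjustment over all tested probes. Tables were read with data.table (version 1.17.8), pandas 2.3.3 and numpy 2.4.6, and figures drawn with matplotlib 3.10.9. Differences between genes were tested within arrays by exact sign flips, adjusted over 4 pairs. The pairing of the channels was checked: deviations from the group means correlated at 0.6, 0.86, 0.73 and 0.48 within arrays and at -0.54 to 0.24 between arrays, across probes, which are not independent.

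Files named 24962 probes. Gene numbers named 1684 more and accessions 436, through RefSeq genes (assembly TB-T2T, used only for names), and 16521 had no name. The members and lists were chosen with earlier results of these data known. Named genes are all members and, of each list, up to 3 with the largest rise and 3 with the largest fall among those past both thresholds with the same sign on all 4 arrays. Where a gene had several probes, the brightest was used for counts of genes. The test was tried on simulated data, and no result of that trial is used here.

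Alternatives were normexp background correction (offset 50) with loess, median centring without lowess, no filter on dim probes, a filter on both channels, a plain one-sample test, a fit without the replicate block, array weights, the median over a gene's probes, and leaving out each array. Their use for *CDH15*, *MYOF*, the unnamed probe and the lists was chosen after seeing the data.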

Additional observations from a re-analysis of the deposited data

Results flagged for a closer look

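The log2 ratio of *MYOF* on array 1 was 0.43, far from the other 3 arrays, which lay between 0.19 and 0.21. The gap to the nearest array was 0.899 of the whole range. Of 40 groups of 4 values looked at, 1 held such a value, and chance gives it in about 1 in 20 groups.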

How the results depend on the processing

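Of the 8 genes found by symbol, 2 were past both thresholds, as were 4 of their probes, and both counts were the same under each alternative other than these: the plain one-sample test gave 0 genes and 1 probe, and the fit without the replicate block gave 1 gene and 2 probes. Of all tested probes 0.548% were past both thresholds with the plain test and 1.38% without the block, beside 8.94%. At an unadjusted p under 0.05 the plain test had 2 genes and limma 4, a threshold at which no share of all genes is given. Leaving out single arrays turned the sign of *CDON*, between -0.019 and 0.19, and of *BIN1*, between -0.095 and 0.039 (without array 2, 0.03); the cause was not tested. *NEO1*, by its brightest probe, ran from -0.60 to -0.49 and *ALCAM* from 0.42 to 0.51 over 11 alternatives. *CDH15* ran from -0.63 to -0.39 and lost its call without the filter on dim probes, with the plain test, without the replicate block, and without array 2, 3 or 4. The 4 differences between genes kept their sign under the 7 alternatives run for them, though *CDON* minus *BOC* ran from -0.33 to -0.02. For the 19 called genes named from lists, 143 results kept their side of the thresholds, 62 fell short of them and 0 turned sign. *BOC*, *BIN1* and *CDON* lay few times above local background, which limits their ratios.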
